A study of Mus musculus with 11 samples.

Results

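Transcripts of 5 genes that make reactive oxygen and nitrogen species were followed in mouse small intestine: the dual oxidase Duox2, its maturation factor Duoxa2, the inducible nitric oxide synthase Nos2, the colonic oxidase Nox1 and the oxidase subunit Cyba. They were taken by symbol from a table of 24250 genes. All 5 were listed, and 4 averaged at least 1 FPKM over all libraries (fragments scaled to gene length and library total), Nox1 being the exception. The genes were chosen by their FPKM values in the 3 groups, known from an earlier look at these data, so their values are given as a description without tests.

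RNA from 11 small intestine samples was sequenced. The FSP group (n = 4) is labelled with 5 Substances Powder with Poria, a herbal preparation whose number the labels spell out, and the labels do not give its diet, although the study's title speaks of obese mice. The HFD group (n = 4) and the ND group (n = 3) are labelled by these letters alone, read here as high-fat and normal diet. The sources used here leave out age, sex, strain, dose, duration and the stretch of small intestine sampled. They also do not say whether the libraries within a group are from different animals, so the spread between them, on which every p-value rests, may be technical.

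Dual oxidases sit in the apical membrane of gut epithelial cells and release hydrogen peroxide towards the lumen. Duoxa2 carries Duox2 out of the endoplasmic reticulum, and both are known to be induced in the gut epithelium by microbes. Nox1 makes superoxide together with Cyba, which encodes the membrane subunit p22phox and also serves the phagocyte oxidase, while Nos2 makes nitric oxide from arginine and needs tetrahydrobiopterin as a cofactor.

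Duox2 and Duoxa2 lie head to head on chromosome 2, and because their transcripts had the most similar pattern of any tested pair that includes either gene, the stretches around both starts are shown. In RefSeq (GRCm38.p6, the assembly also called mm10, which the submitters' processing notes name), Duox2 spans chr2:122279246-122298740 on the minus strand and Duoxa2 spans chr2:122298900-122302885 on the plus strand, with 159 bases between them. Duoxa1 and Duox1, the related pair, follow at chr2:122303540-122313763 and chr2:122313010-122347972, so that the 4 genes take up 68.7 kb. Each sequence below runs 5′ to 3′ along its gene, from 250 bases before the start that the RefSeq table gives to 50 bases after it. Duox2 is read from chr2:122298178-122298477 on the minus strand and Duoxa2 from chr2:122298650-122298949 on the plus strand. The Duox2 start used there lies inside the gene's longest span, so that 672 bases lie between the starts used. Capitals mark a TATAAA match, whose first base is at position -30 of Duoxa2.
Duox2: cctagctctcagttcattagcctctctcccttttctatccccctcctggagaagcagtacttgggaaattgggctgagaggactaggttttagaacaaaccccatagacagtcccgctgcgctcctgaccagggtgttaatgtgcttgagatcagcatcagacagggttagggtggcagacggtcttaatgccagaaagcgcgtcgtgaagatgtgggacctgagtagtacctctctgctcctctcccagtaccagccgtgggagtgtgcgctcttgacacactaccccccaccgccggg
Duoxa2: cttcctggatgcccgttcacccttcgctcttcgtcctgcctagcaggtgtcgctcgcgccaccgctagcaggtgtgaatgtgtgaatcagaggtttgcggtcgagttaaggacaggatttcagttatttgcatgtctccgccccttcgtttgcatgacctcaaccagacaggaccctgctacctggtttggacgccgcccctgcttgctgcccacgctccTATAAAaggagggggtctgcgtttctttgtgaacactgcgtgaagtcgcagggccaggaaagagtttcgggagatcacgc
The 2 windows held 55.3% G and C for Duox2 and 56.7% for Duoxa2, against a median of 52.7% over all promoters. Of 32851 promoters of the same length, 13.6% hold TATAAA on either strand. Other motifs searched on both strands were TTCNNNGAA (bound by STAT factors, in 8.3% of promoters), the interferon-stimulated response element (bound by IRF factors, 3.44%), the NF-kB consensus (4.51%), TTTATG (CDX factors, 11.9%) and AGATAA (bound by the GATA family, 11.2%). None of these motifs occurs in the Duox2 or Duoxa2 window, and the stretch between these windows was not searched. The Nox1 window held 1 match to the NF-kB consensus and 2 to TTTATG, and the Cyba window held 1 match to AGATAA, with no overlap among them. Nox1 lies at chrX:134086421-134137711, Cyba at chr8:122424771-122432940 and Nos2 at chr11:78920787-78960226.

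Depth, recovered from the steps between low FPKM values, was 3.17e+07 to 3.81e+07 fragments per library. The 9 epithelial markers averaged 8.48 to 8.76 on the log2(FPKM + 1) scale in FSP, 7.84 to 8.48 in HFD and 8.43 to 8.49 in ND. Mitochondrially encoded genes made up 12.9% to 21.9% of summed FPKM in FSP, 18.1% to 40.4% in HFD (40.4% in HFD 1) and 16.3% to 22.2% in ND. A position score, the mean log2(FPKM + 1) of 12 distal small intestine markers minus that of 12 proximal ones, was 0.129 to 2.12 in FSP, -1.33 to -0.546 in HFD and 1.63 to 4.12 in ND, so HFD lay below both other groups in every library. With limma, 2109 of 10296 genes passed an adjusted p of 0.05 in HFD against ND (552 higher, 1557 lower), 385 in FSP against HFD (291 higher, 94 lower) and 106 in FSP against ND (72 higher, 34 lower). These splits depend on how libraries are scaled: with median-ratio scaling they were 899 higher and 799 lower in HFD against ND and 142 higher and 103 lower in FSP against HFD, and with quantile normalization 1124 and 1182, and 248 and 193. In equal totals without the mitochondrially encoded genes the splits were 163 higher and 125 lower in FSP against HFD and 75 higher and 73 lower in FSP against ND. The median log2 difference of all tested genes was -0.21 in HFD against ND, which median-ratio scaling brought to -0.0013.

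Duox2, the oxidase itself, was lowest in HFD and intermediate in FSP. It stood at 3.58, 26.8, 13.7 and 16.6 FPKM in FSP 1 to 4, at 0.108, 2.72, 1.02 and 0.252 FPKM in HFD 1 to 4, and at 56.4, 50.3 and 32.3 FPKM in ND 1 to 3. No HFD library reached the lowest FSP library, and no FSP library reached the lowest ND library. Means were 15.2 ± 9.53 FPKM in FSP, 1.02 ± 1.2 FPKM in HFD (SD, n = 4 each) and 46.3 ± 12.5 FPKM in ND (SD, n = 3). The ND mean was 45.2 times the HFD mean and the FSP mean 14.8 times it. HFD 2 weighs most in the HFD mean, and without it these folds were 101 and 32.9. Taking the longest transcript of Duox2 in GENCODE (6112 bases), the HFD values rest on about 21, 562, 220 and 57 fragments, so HFD 1 and HFD 4 are imprecise.

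Duoxa2, the maturation factor, showed the same order of groups. It stood at 4.36, 40.3, 12.1 and 21.7 FPKM in FSP 1 to 4, at 0.239, 4.8, 1.46 and 0.531 FPKM in HFD 1 to 4, and at 85.4, 72.3 and 47.4 FPKM in ND 1 to 3. HFD 2 was above FSP 1, so FSP and HFD overlapped, while both stayed below every ND library. Group means were 19.6 ± 15.5 FPKM in FSP, 1.76 ± 2.10 FPKM in HFD and 68.4 ± 19.3 FPKM in ND. The ND mean was 38.9 times the HFD mean (92 times without HFD 2) and 3.49 times the FSP mean (5.38 times without FSP 2). The FSP mean was 11.1 times the HFD mean, 26.4 times without HFD 2 and 7.23 times without FSP 2.

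Nos2, which makes nitric oxide, ranged over 1560 times between its lowest and highest library. Its level was 3.98, 18, 3.54 and 31.6 FPKM in FSP 1 to 4, against 0.0292, 1.95, 0.631 and 0.0562 FPKM in HFD 1 to 4, and 27.6, 33.8 and 45.5 FPKM in ND 1 to 3. All FSP libraries exceeded all HFD libraries, and FSP 4 lay within the range of ND. The means were 14.3 ± 13.4 FPKM in FSP, 0.667 ± 0.900 FPKM in HFD and 35.6 ± 9.11 FPKM in ND, so that FSP stood 21.4 times and ND 53.4 times as high as HFD. Without HFD 2 these folds were 59.9 and 149, and without FSP 4 the fold of FSP over HFD was 12.8. The HFD values are thinly covered, with about 4 fragments in HFD 1 and 9 in HFD 4 for a transcript of 4192 bases.

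Cyba, the subunit shared by several oxidases, was the most abundant of the 5 per length in every library. It stood at 56.9, 157.5, 35.1 and 65.0 FPKM in FSP 1 to 4, at 32.2, 43.5, 27.8 and 15.4 FPKM in HFD 1 to 4, and at 91.3, 99.0 and 105.4 FPKM in ND 1 to 3. FSP 3 lay below HFD 2, and FSP 2 was the highest library of all, above every ND library. Cyba averaged 78.6 ± 54.1 FPKM in FSP, 29.7 ± 11.6 FPKM in HFD and 98.6 ± 7.08 FPKM in ND. The ND mean was 3.31 times the HFD mean, and the FSP mean was 2.64 times it, or 1.76 times without FSP 2.

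Nox1, the catalytic oxidase best known from the colon, was hardly detected. It was listed at 0, 0.0656, 0 and 0.135 FPKM in FSP 1 to 4, at 0, 0.0306, 0.0584 and 0 FPKM in HFD 1 to 4, and at 0.254, 0.160 and 0.288 FPKM in ND 1 to 3. Each ND library was above every other library, and FSP and HFD overlapped. The 8 listed colon markers averaged 0.674 to 1.01 on the log2(FPKM + 1) scale in FSP, 0.835 to 0.986 in HFD and 1.39 to 1.58 in ND, with 2 of 3 tested lower in HFD than in ND by limma, and their part in the Nox1 values was not tested. The values correspond to 22 fragments over the 4 FSP libraries, 9 over the 4 HFD libraries and 74 over the 3 ND libraries, at an implied length of 2912 bases. In RefSeq the Nox1 span overlaps Cstf2, and the use of strand in counting is not stated, so fragments of the 2 genes may not be told apart. Because the samples are bulk tissue, fewer cells of a type and less RNA per cell cannot be told apart for any of these genes.

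**Figure D1:**
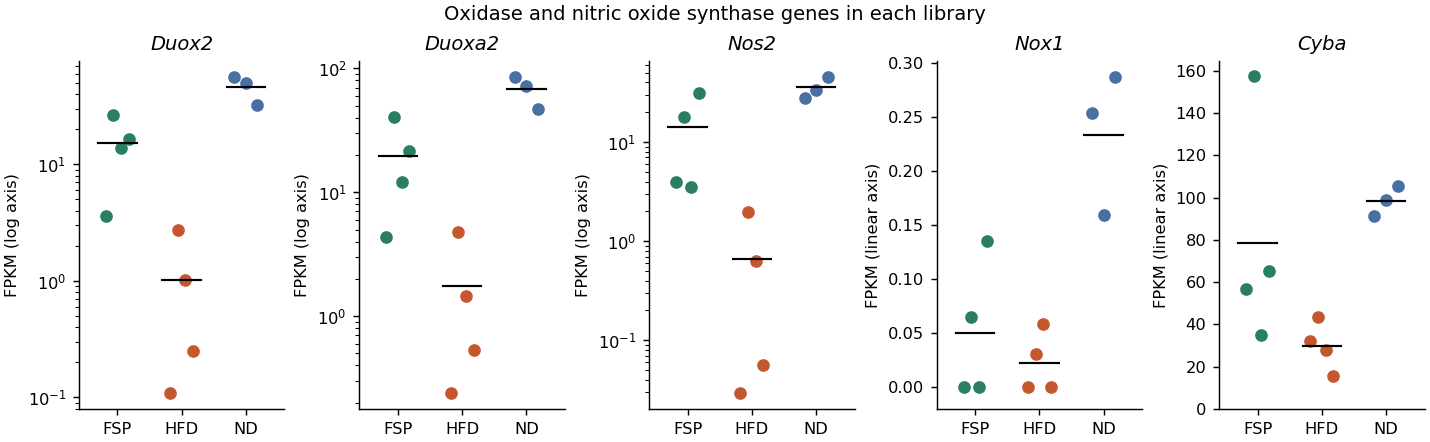
FPKM of the 5 genes in every library (points) with group means (bars) for FSP, HFD and ND, on log axes for Duox2, Duoxa2 and Nos2 and linear axes for Nox1 and Cyba. The 4 HFD libraries of Duox2 lie between 0.108 and 2.72 FPKM, below the 4 FSP and 3 ND libraries, while for Cyba FSP spreads over the ranges of both other groups.

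On the log2(FPKM + 1) scale, the differences of HFD minus ND were -4.68 (SE 0.55) for Duox2, -4.89 (SE 0.64) for Duoxa2, -4.57 (SE 0.64) for Nos2 and -1.78 (SE 0.43) for Cyba. FSP minus HFD gave 2.91 (SE 0.51) for Duox2, 2.81 (SE 0.60) for Duoxa2, 2.85 (SE 0.59) for Nos2 and 1.24 (SE 0.40) for Cyba, and without FSP 2 the difference for Cyba was 0.84. FSP minus ND gave -1.78 (SE 0.55) for Duox2, -2.08 (SE 0.64) for Duoxa2, -1.72 (SE 0.64) for Nos2 and -0.54 (SE 0.43) for Cyba, the last between -0.94 without FSP 2 and -0.23 without FSP 3. Each pair of comparisons shares a group of libraries, so the values are not independent. In HFD against ND all 5 genes had every HFD library below every ND library, a pattern that 33.6% of the 10296 tested genes showed, Nox1 not being one of these. In FSP against HFD, Duox2 and Nos2 had every FSP library above every HFD library, as had 8.52% of tested genes, and the other 3 overlapped. In FSP against ND, Duox2, Duoxa2 and Nox1 had every FSP library below every ND library, as had 10.9% of tested genes, and Nos2 and Cyba overlapped. Since these comparisons served to choose the genes, nothing is read from the counts.

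Regional markers moved with the groups. Of 12 tested distal markers, 10 were lower in HFD than in ND by limma and 6 were higher in FSP than in HFD, and of 9 tested proximal markers 7 were higher and 1 lower in HFD than in ND. With the position score as a covariate, the differences of HFD minus ND were -3.54 (SE 1.33) for Duox2, -3.14 (SE 1.5) for Duoxa2, -2.90 (SE 1.49) for Nos2 and -0.75 (SE 1.02) for Cyba. FSP minus HFD then gave 2.24 (SE 0.88) for Duox2, 1.79 (SE 0.98) for Duoxa2, 1.87 (SE 0.98) for Nos2 and 0.64 (SE 0.67) for Cyba. FSP minus ND gave -1.30 (SE 0.75) for Duox2, -1.35 (SE 0.84) for Duoxa2, -1.03 (SE 0.84) for Nos2 and -0.11 (SE 0.57) for Cyba. In that fit 0 genes of 10296 passed the adjusted limma threshold in HFD against ND (707 at an unadjusted p under 0.05), and 0 passed in FSP against HFD (757 at an unadjusted p under 0.05). The score is built from expression values, not from a known site. A different site, a change of these markers at the same site and the group therefore cannot be told apart in this design.

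Mean levels of the macrophage list and of the B and plasma cell list did not follow the order of the groups seen for Duox2 and Nos2. Neutrophil markers were too low to show an order. Of 10 neutrophil markers 9 were listed, none averaged 1 FPKM, and their mean log2(FPKM + 1) was 0.043 to 0.086 in FSP, 0.062 to 0.085 in HFD and 0.053 to 0.12 in ND. The 11 macrophage markers averaged 1.14 to 2.57 in FSP, 1.45 to 2.12 in HFD and 1.40 to 1.63 in ND. B and plasma cell markers averaged 4.8, 4.03, 1.60 and 2.25 in FSP 1 to 4, 4.08, 4.05, 3.17 and 1.75 in HFD 1 to 4 and 1.53 to 1.61 in ND. Members of that list differed. Xbp1 stood at 37.1 to 75.9 FPKM in HFD and 77.0 to 98.3 FPKM in ND, and Cd79a at 1.31 to 99.3 FPKM and 0.752 to 1.47 FPKM. The part of these cells in the values of the 5 genes was not tested.

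Within groups, Duox2, Duoxa2, Nos2 and Cyba spread more widely in FSP and HFD than in ND. For Duox2 the highest library exceeded the lowest 7.47 times in FSP, 25.1 times in HFD and 1.75 times in ND, and for Nos2 8.94 times in FSP, 66.7 times in HFD and 1.65 times in ND. HFD 2 was the highest HFD library for Duox2, Duoxa2, Nos2 and Cyba. FSP 2 was the highest FSP library for Duox2, Duoxa2 and Cyba, whereas FSP 4 was highest for Nos2. FSP 1 was the lowest FSP library for Duox2 and Duoxa2, and FSP 3 for Nos2 and Cyba. Goblet cell markers averaged 6.22, 7.20, 4.63 and 6.46 in FSP 1 to 4, the order of the FSP libraries in Cyba, 5.36 to 5.74 in HFD and 4.96 to 5.32 in ND. Paneth cell markers were highest in FSP 2 among FSP libraries (4.75) and in HFD 2 among HFD libraries (5.24), within ranges of 3.43 to 4.75 in FSP, 2.78 to 5.24 in HFD and 4.36 to 4.57 in ND. Crypt stem cell markers averaged 2.17 to 3.89 in FSP, 2.11 to 3.67 in HFD and 3.34 to 3.77 in ND. Smooth muscle markers averaged 4.00 to 6.91 in FSP (lowest in FSP 2), 4.52 to 6.49 in HFD and 5.98 to 6.51 in ND. The part of these cell types in the spread was not tested.

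The ratio of Duoxa2 to Duox2 within a library varied far less than either level. It was 1.22, 1.51, 0.879 and 1.31 in FSP 1 to 4, 2.2, 1.77, 1.43 and 2.11 in HFD 1 to 4, and 1.51, 1.44 and 1.47 in ND 1 to 3. The highest ratios, in HFD 1 and HFD 4, are imprecise, as Duoxa2 there rests on about 12 and 32 fragments. Over all libraries the highest level exceeded the lowest 520 times for Duox2 and 357 times for Duoxa2. Nos2 was less tightly tied, with a ratio to Duox2 of 0.258 to 1.91 in FSP, 0.224 to 0.718 in HFD and 0.489 to 1.41 in ND.

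**Figure D2:**
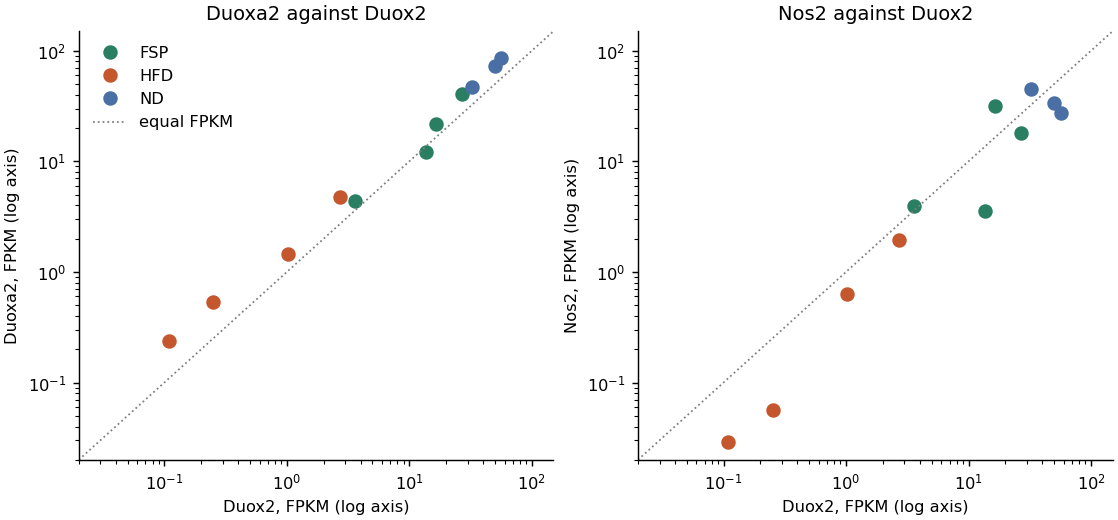
Duoxa2 (left) and Nos2 (right) against Duox2, FPKM on log axes, with a point per library and a dotted line at equal FPKM. Duoxa2 follows the line over the whole range with ratios between 0.879 and 2.2, and Nos2 scatters around it with ratios between 0.224 and 1.91.

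Of the partners of these oxidases, the related pair next to Duox2 and Duoxa2 was hardly detected. Duox1 amounted to 25 fragments over the 4 FSP libraries, 6 over the 4 HFD libraries and 16 over the 3 ND libraries, and Duoxa1 to 4, 2 and 3 fragments in the same groups. The 2 genes share 754 bases in RefSeq, so some of these fragments may belong to either.

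**Figure D3:**
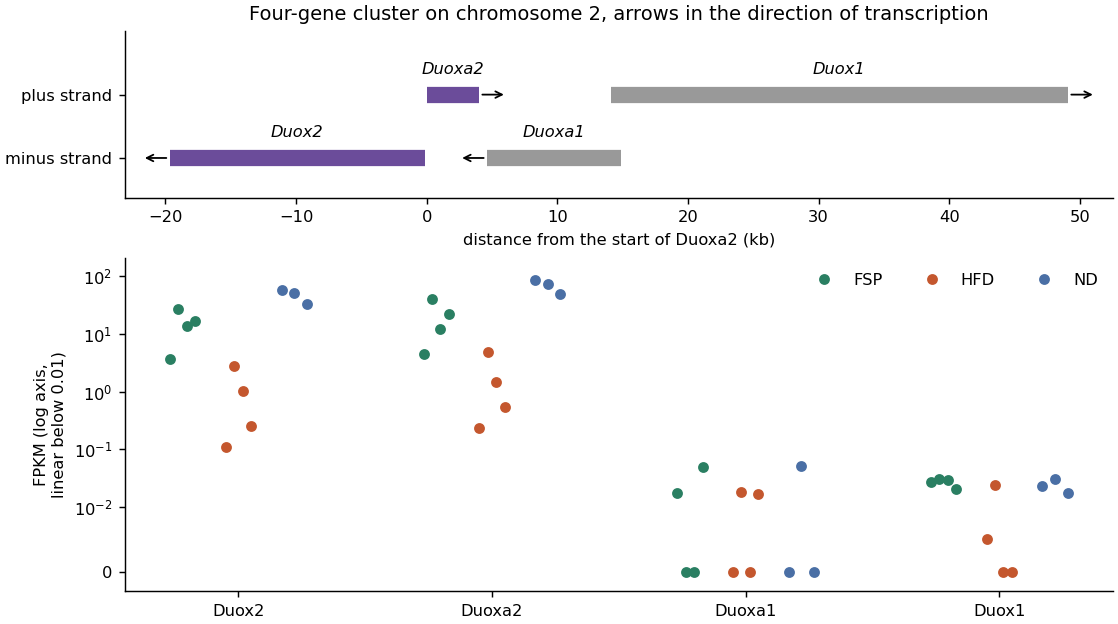
The cluster of Duox2, Duoxa2, Duoxa1 and Duox1 drawn by distance from the start of Duoxa2 in kb (top), and FPKM of each gene per library in FSP, HFD and ND (bottom, log axis, linear below 0.01). Duox2 and Duoxa2 reach 56.4 and 85.4 FPKM, and Duox1 stays at or below 0.0309 FPKM in all 11 libraries.

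Noxo1, the organizer subunit of the Nox1 complex, was clearly expressed although Nox1 was not. It stood at 9.46, 14.9, 9.02 and 13.2 FPKM in FSP 1 to 4, at 4.41, 9.70, 7.73 and 7.01 FPKM in HFD 1 to 4, and at 16.4, 16.5 and 15.7 FPKM in ND 1 to 3. It fell in HFD against ND by 1.11 on the log2 scale (SE 0.22, limma adjusted p = 0.00668), in 4 of 4 HFD libraries, and FSP minus HFD was 0.64 (adjusted p = 0.12). Noxa1, the activator subunit, averaged 2.90 FPKM in HFD and 5.90 FPKM in ND (log2 difference -0.84, limma adjusted p = 0.0409), and the GTPase Rac1 averaged 175.8 FPKM in HFD and 222.0 FPKM in ND (-0.34, limma adjusted p = 0.0444). Those calls ended without 7 of 11 single libraries for Noxa1 (adjusted p up to 0.15) and without 9 of 11 for Rac1 (adjusted p up to 0.168), and median-ratio scaling ended both. Cybb, the catalytic subunit of the phagocyte oxidase, was at 5.05, 2.36, 0.273 and 0.844 FPKM in FSP 1 to 4, at 2.75, 3.24, 1.18 and 0.307 FPKM in HFD 1 to 4 and at 0.508, 0.222 and 0.219 FPKM in ND 1 to 3, and did not pass in HFD against ND (0.99, limma adjusted p = 0.174). Of 13 listed partners 9 were tested, and in HFD against ND 3 fell, 0 rose and 6 did not pass. That is 33.3% of a short list, against 20.5% of all tested genes, with a median log2 difference of 0.27.

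Over all pathway lists, 80 of 117 genes were tested in addition to the 5 described above. In HFD against ND 7 rose and 20 fell, which is 33.8% of the 80, against 20.5% of all tested genes (5.36% higher, 15.1% lower). Their median difference was -0.20, close to the -0.21 of all genes. The direction of the smaller differences depends on scaling: with quantile normalization 15 of the 80 were higher and 14 lower, with median-ratio scaling 9 and 12, and in equal totals without mitochondrially encoded genes 10 and 17. Of the 27 calls, 14 held without every single library, and 12, among them Noxo1, Arg2, Gch1, Ddah1, Gpx2, Tlr3, Il17rc, Il10rb, Stat3, Saa1 and Tifa, held under every alternative other than the position score as covariate, which ended all 27. With that covariate HFD minus ND was -4.07 (SE 1.40) for Gpx2, -4.04 (SE 1.34) for Tifa, -1.33 (SE 0.34) for Stat3 and -0.61 (SE 0.31) for Srxn1, each at least 0.9 times its size without the covariate. It was 0.24 (SE 0.53) for Arg2, -0.45 (SE 0.53) for Ddah1, -0.28 (SE 0.39) for Tlr3, -2.47 (SE 2.40) for Saa1 and -0.53 (SE 0.53) for Noxo1, each under 0.5 times its size without the covariate. For Il17rc it was -0.59 (SE 0.41), for Noxa1 -0.43 (SE 0.63), for Il10rb 0.42 (SE 0.32) and for Gch1 0.78 (SE 0.40).

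In the nitric oxide and arginine list, 4 of 16 tested genes rose in HFD against ND, 2 fell and 10 did not pass. Their median difference was -0.17, and 37.5% passed, against 20.5% of all tested genes. Gch1, the rate-limiting enzyme of tetrahydrobiopterin synthesis, rose by 1.13 (SE 0.17, limma adjusted p = 0.00152), with 22.5, 14.9, 17.0 and 20.8 FPKM in HFD 1 to 4 against 7.58, 8.64 and 7.66 FPKM in ND 1 to 3. Arg2, a mitochondrial arginase that uses the same substrate as Nos2, rose by 1.84 (SE 0.30, adjusted p = 0.00242; 0.24 with the position score as covariate), with 324.2 to 716.7 FPKM in HFD and 92.3 to 200.5 FPKM in ND. Ddah1, which degrades methylated arginines that inhibit nitric oxide synthases, fell by 2.18 (SE 0.32, adjusted p = 0.00139; -0.45 with the covariate), with 0.763, 1.68, 1.29 and 0.759 FPKM in HFD 1 to 4 against 13.2, 9.84 and 4.57 FPKM in ND 1 to 3. The other synthases, Nos1 and Nos3, stayed below 0.7 FPKM in all 11 libraries.

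Among 20 tested genes for the removal of superoxide and peroxide, 1 rose in HFD against ND, 2 fell and 17 did not pass. Their median difference was 0.08, and the 15.0% that passed is under the 20.5% of all tested genes. Gpx2, the gastrointestinal glutathione peroxidase, fell by 3.97 (SE 0.56, limma adjusted p = 0.00126), with 13.2, 66.7, 89.6 and 96.0 FPKM in HFD 1 to 4 against 938.5, 902.6 and 706.3 FPKM in ND 1 to 3. Srxn1, sulfiredoxin, fell by 0.68 (SE 0.13, adjusted p = 0.00435), a call that median-ratio scaling ended. Gpx4, which reduces lipid peroxides, rose by 0.78 (SE 0.20, adjusted p = 0.0201), and its call ended without ND 1 (adjusted p = 0.0966), without ND 2 (adjusted p = 0.0632) or without the filter on low values (adjusted p = 0.052). With the position score as covariate its difference turned to -0.24 (SE 0.36). Of the 5 haem peroxidases, which consume hydrogen peroxide, only Pxdn was tested and it did not pass.

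In the microbial sensing and NF-kB list 4 of 13 tested genes fell in HFD against ND and 9 did not pass. Their median difference was -0.41, and 30.8% passed, against 20.5% of all tested genes. Tlr3, a receptor for double-stranded RNA, fell by 0.93 (SE 0.18, limma adjusted p = 0.00521), with 2.54 to 4.23 FPKM in HFD and 6.24 to 9.83 FPKM in ND. The adaptor Myd88 fell by 0.44 (adjusted p = 0.0137), the ligase Traf6 by 0.64 (adjusted p = 0.0198) and the kinase Irak4 by 0.41 (adjusted p = 0.0438). Those 3 calls were less stable: that of Myd88 ended without ND 2 (adjusted p = 0.0706), that of Traf6 without ND 1 or ND 2 (adjusted p up to 0.087) and that of Irak4 without 8 of 11 single libraries (adjusted p up to 0.138). Median-ratio scaling and quantile normalization ended the calls of Myd88 and Irak4.

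In the list of inducing cytokines and their receptors 1 of 11 tested genes rose in HFD against ND, 4 fell and 6 did not pass. Their median difference was -0.22, and 45.5% passed, against 20.5% of all tested genes. Il17rc, a receptor subunit for interleukin 17, fell by 1.17 (SE 0.18, limma adjusted p = 0.0018), with 19.5, 33.2, 27.6 and 26.2 FPKM in HFD 1 to 4 against 58.8, 62.5 and 58.9 FPKM in ND 1 to 3. Stat3, which transmits interleukin 22 and interleukin 6 signals, fell by 0.88 (SE 0.15, adjusted p = 0.00267), with 14.5 to 17.9 FPKM in HFD and 29.3 to 33.5 FPKM in ND. Il10rb, the receptor subunit shared by interleukins 10 and 22, rose by 0.78 (SE 0.14, adjusted p = 0.00341). The cytokine Il22 itself was listed at 0 in all 4 HFD libraries, and corresponded to 5 fragments in FSP 2, 0 in the other FSP libraries and 16, 8 and 4 fragments in ND 1 to 3.

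Epithelial genes known to respond to microbes gave 1 rise and 5 falls among 10 tested genes in HFD against ND, with 4 not passing. Their median difference was -1.60, and 60.0% passed, against 20.5% of all tested genes. Saa1, an acute-phase protein, fell by 5.94 (SE 1.07, limma adjusted p = 0.00365), with 0.114, 1.14, 0.170 and 0.0324 FPKM in HFD 1 to 4 against 154.6, 109.4 and 28.8 FPKM in ND 1 to 3. Tifa, an adaptor that passes on bacterial sugar signals to NF-kB, fell by 3.25 (SE 0.55, adjusted p = 0.00265). The antimicrobial lectins Reg3g and Reg3b differed by -4.81 (adjusted p = 0.0215) and -4.58 (adjusted p = 0.0216), and both calls ended on leaving out any one ND library (adjusted p up to 0.0735) and without the filter on low values. Fut2, a fucosyltransferase of the epithelial surface that averaged under 1 FPKM, stood at 0.155 to 0.989 FPKM in FSP, 0.0485 to 0.166 FPKM in HFD and 0.873 to 3.90 FPKM in ND.

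FSP against HFD gave 5 rises and 0 falls among the 80 pathway genes, which is 6.25% against 3.74% of all tested genes (2.83% higher, 0.913% lower). The median difference was 0.19 against 0.12. Ddah1 rose by 1.71 (SE 0.29, limma adjusted p = 0.0157), with 5.55, 3.99, 5.49 and 9.26 FPKM in FSP 1 to 4, all above the HFD libraries. Il17rc rose by 0.96 (SE 0.17, adjusted p = 0.0162), with 40.3 to 60.2 FPKM in FSP and 19.5 to 33.2 FPKM in HFD. Srxn1 rose by 0.64 (SE 0.12, adjusted p = 0.0182), Stat3 by 0.61 (SE 0.14, adjusted p = 0.0372) and Nostrin, a trafficking partner of endothelial nitric oxide synthase, by 0.55 (SE 0.13, adjusted p = 0.0464). All 5 calls ended without FSP 4, at adjusted p between 0.0519 for Ddah1 and 0.153 for Nostrin. The call of Srxn1 also ended without HFD 3 (adjusted p = 0.0545), that of Stat3 without 9 of the 11 single libraries (adjusted p up to 0.114) and that of Nostrin without 10 (up to 0.153). Median-ratio scaling ended the calls of Srxn1, Stat3 and Nostrin, testing genes without the filter ended those of Ddah1, Stat3 and Nostrin, and a fit of only the 2 groups ended those of Il17rc, Srxn1, Stat3 and Nostrin. Gpx2 stood at 110.0, 207.4, 257.8 and 198.4 FPKM in FSP 1 to 4, above all HFD libraries, and did not pass (1.79, SE 0.52, adjusted p = 0.0871). Tifa did not pass either (1.77, SE 0.51, adjusted p = 0.081).

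In FSP against ND 1 of the 80 genes rose and 0 fell, which is near the 1.03% of all tested genes (0.699% higher, 0.33% lower). Gch1 stood at 15.1, 19.4, 16.5 and 12.4 FPKM in FSP 1 to 4 and was higher than in ND by 0.90 (SE 0.17, limma adjusted p = 0.0318). That call ended without 7 of 11 single libraries, at adjusted p up to 0.176. It also ended with median-ratio scaling, no filter, a replicate block or the position score as covariate.

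**Figure D4:**
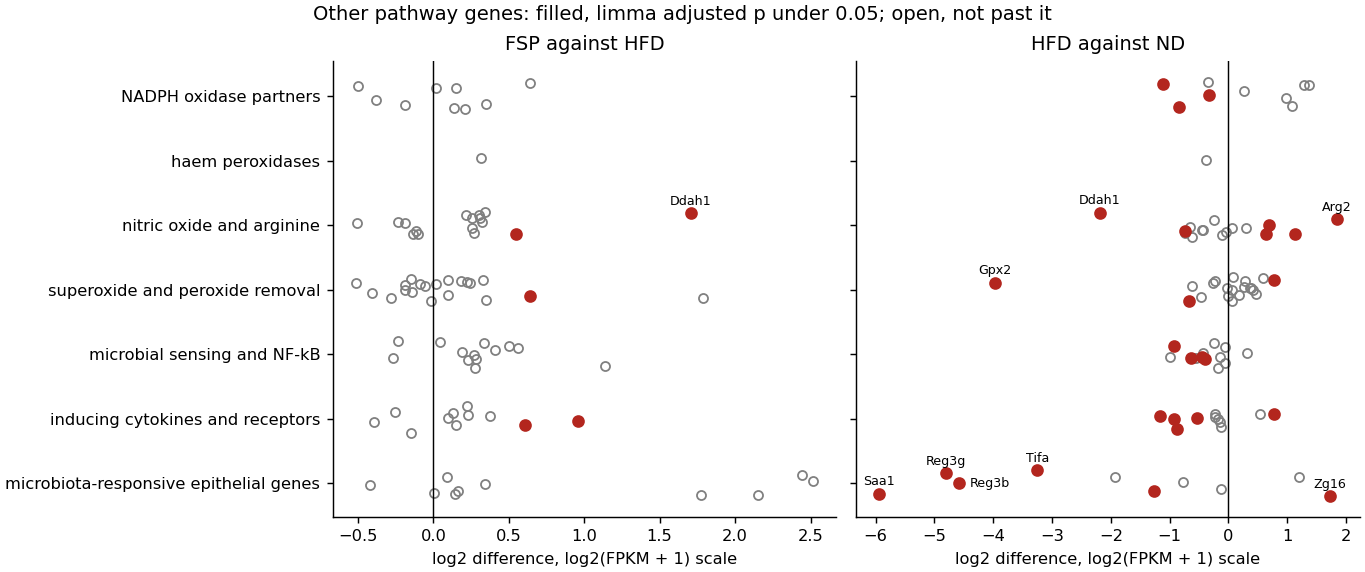
Log2 differences of the other pathway genes on the log2(FPKM + 1) scale for FSP against HFD (left) and HFD against ND (right), a point per tested gene in rows by list, filled where the limma adjusted p was under 0.05. In HFD against ND 20 filled points lie below 0 and 7 above, and in FSP against HFD 5 filled points lie above 0.

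Likeness of pattern was measured as the root mean square difference between log2(FPKM + 1) values over the 11 libraries after each gene's own mean was subtracted, so that 0 is an identical pattern. For Duox2 the nearest of all tested genes was Duoxa2 at 0.23, followed by Mgat4c (a glycosyltransferase) at 0.60, Slc5a8 (a monocarboxylate transporter) at 0.64, Nos2 at 0.66 and Tifa at 0.80. For Duoxa2 they were Duox2 at 0.23, Mgat4c at 0.62, Nos2 at 0.63, Slc5a8 at 0.69 and Tmigd1 at 0.89. For Nos2 they were Duoxa2 at 0.63, Duox2 at 0.66, Slc5a8 at 0.73, Mgat4c at 0.75 and Tmigd1 at 0.80. Mgat4c stood at 19.7, 31.1, 16.4 and 36.9 FPKM in FSP 1 to 4, at 0.197, 6.69, 2.6 and 0.284 FPKM in HFD 1 to 4 and at 109.5, 72.7 and 42.2 FPKM in ND 1 to 3. Slc5a8 ran from 22.5 to 39.9 FPKM in FSP, from 1.02 to 14.4 FPKM in HFD and from 64.7 to 98.7 FPKM in ND. In both genes HFD 2 was again the highest HFD library.

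Cyba had another set of neighbours. They were the pantetheinase Vnn1 at 0.33, the potassium channel Kcnj13 at 0.34, the peptidoglycan recognition protein Pglyrp1 at 0.34, the inflammatory caspase Casp4 at 0.37 and Mreg at 0.37. Duox2 was farther off, at 1.33. The measure also counts the size of the changes, and the libraries spanned 3.27 for Cyba and 5.70 for Duox2. Seen from Cyba, Duox2 ranked 9898 among tested genes. Seen from Duox2, Duoxa2 and Nos2, Cyba ranked 64, 59 and 47. Pglyrp1 stood at 56.4, 214.9, 46.3 and 95.9 FPKM in FSP 1 to 4, at 26.4, 57.0, 35.1 and 29.6 FPKM in HFD 1 to 4 and at 119.9, 116.8 and 83.4 FPKM in ND 1 to 3, with FSP 2 the highest of all 11 libraries as in Cyba. Casp4 ran from 18.4 to 48.4 FPKM in FSP, from 9.71 to 17.6 FPKM in HFD and from 40.0 to 49.2 FPKM in ND. Nox1 varied over only 0.37 on this scale, so its nearest genes (Mynn, Wdr20, Mycbp, Yipf4 and Poll, at 0.049 to 0.079) are genes with small differences. Each had every HFD library below every ND library, as had 33.6% of tested genes. Their HFD minus ND ran from -0.36 (Mycbp) to -0.18 (Yipf4), beside -0.27 for Nox1.

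**Figure D5:**
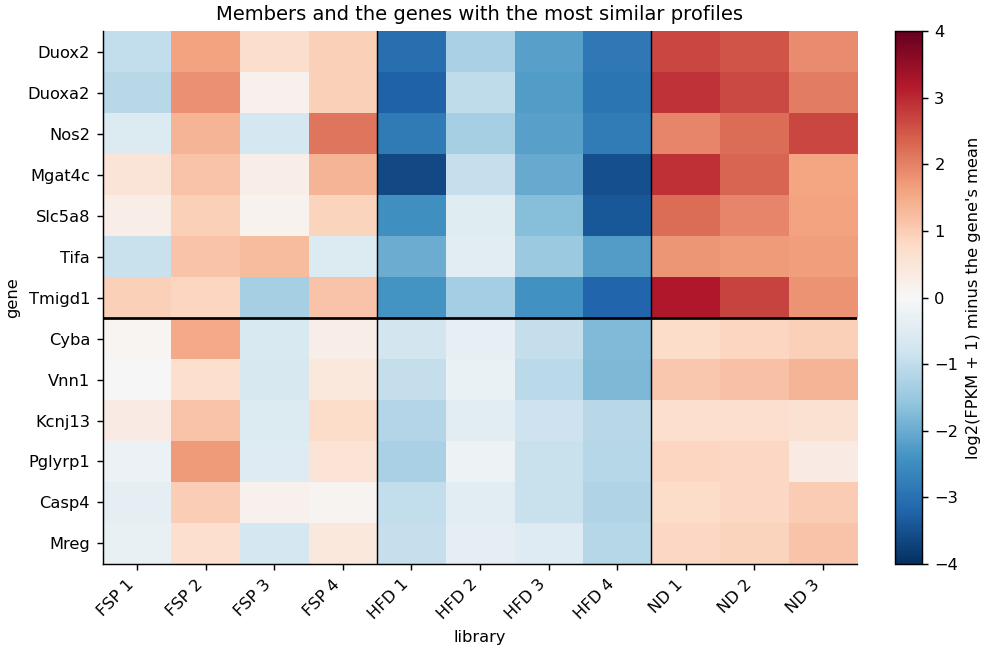
Log2(FPKM + 1) minus the gene's mean over all libraries, for Duox2, Duoxa2 and Nos2 with their nearest genes (top block) and Cyba with its nearest genes (bottom block), columns being FSP 1 to 4, HFD 1 to 4 and ND 1 to 3. The HFD columns are below the gene's mean throughout both blocks, while FSP 2 is the highest FSP library in every row of the bottom block.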

How the data were processed

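Total RNA was sequenced from 11 small intestine samples (FSP 4, HFD 4, ND 3), grouped by their titles. Per the labels, the RNA was taken up in TRIzol and prepared with a VAHTS Universal V6 kit. HISAT2, HTSeq, fastp, R 3.2.0 and the mm10 build are named in the submitters' processing notes. The gene models, strand setting and FPKM program were not found there or in the labels. As deposited by the authors, the values are FPKM values, which divide by gene length and library total, so that an RNA class taking a large share lowers all other genes. The single-library files matched the joint table in every shared gene. Those of HFD and ND list 685 genes that the joint table lacks, each at 0, and lack 641 of its genes, whereas those of FSP list the same genes as that table, so that a difference in tabulation and the FSP group cannot be told apart.

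Log2(FPKM + 1) values of the 10296 genes with a mean of at least 1 FPKM were fitted with limma 3.58.1 in R 4.3.3, with the 3 groups in 1 fit, an intensity trend and Benjamini-Hochberg adjustment over all genes tested within a comparison (two-sided, threshold 0.05). The log2(FPKM + 1) scale understates changes of low genes. Whole fragments and depth were recovered from the steps of low FPKM values: in 425 single-exon genes, 89.5% to 95.2% of a library's values up to 10 fragments came within 0.05 of a whole number. Fragment numbers cover counting error only.

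The 5 genes and all lists were chosen with earlier results of these data known. Named besides the 5 and their direct partners were, per list and comparison, up to 4 genes past the threshold with the smallest p, and for each of the 5 the 5 genes nearest in pattern. Some genes that the rule names are not reported here. Fut2, Il22, Nos1 and Nos3 fall outside that rule and were named after their values were seen. Of the 24250 symbols, 23178 matched a RefSeq symbol, and 4 of the 5 genes matched a promoter entry. Alternatives were another pseudocount, no filter, 4 scalings, no trend, fits of 2 groups, a replicate block, the position score as covariate and leaving out each library.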

Additional observations from a re-analysis of the deposited data

How the results depend on the processing

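No difference of Duox2, Duoxa2, Nos2 or Cyba changed direction in any alternative run. Where groups do not overlap, as in HFD against ND for each of these genes, leaving out a library could not reverse the direction. With log2(FPKM + 0.1), HFD minus ND was -6.03 for Duox2, -5.88 for Duoxa2, -6.39 for Nos2 and -1.46 for Nox1, FSP minus HFD was 4.15 for Duox2, 4.53 for Nos2 and 0.23 for Nox1, and FSP minus ND was -1.23 for Nox1, as a smaller pseudocount widens differences of low genes. With the position score as covariate, HFD minus ND was -3.54 for Duox2, -3.14 for Duoxa2, -2.90 for Nos2, -0.19 for Nox1 and -0.75 for Cyba. The limma calls in that fit were 0 of all genes and 0 of the pathway genes in HFD against ND, 0 and 0 in FSP against HFD, and 7 and 0 in FSP against ND (743 genes at an unadjusted p under 0.05). As the score differs between the groups, standard errors of HFD minus ND grew from 0.55 to 1.33 for Duox2 and from 0.15 to 0.34 for Stat3. The part of this in the lost calls was not tested. FSP minus HFD of Nox1, 0.037, was -0.0076 with that covariate and -0.0008 without FSP 4, within its replicate spread of 0.068.

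In FSP against HFD the 385 calls became 117 without the filter, 245 with median-ratio scaling and 76 with only the 2 groups compared, and the 5 pathway calls became 2, 2 and 1, and 3 in equal totals without mitochondrially encoded genes. In FSP against ND the 106 calls became 58 without the filter and 196 with quantile normalization, and the 1 pathway call became 0 without the filter, 0 with median-ratio scaling, 3 with quantile normalization, 2 in equal totals without mitochondrially encoded genes and 2 with only the 2 groups compared. Fits of 2 groups have fewer samples; otherwise the cause was not tested.

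Leaving out each library in turn gave 849 (without ND 2) to 2678 (without FSP 2) calls in HFD against ND, with 877 without ND 1, 48 (without FSP 4) to 458 (without FSP 3) in FSP against HFD, and 13 (without ND 2) to 201 (without HFD 1) in FSP against ND. Pathway calls ran from 14 to 31, from 0 to 6 and from 0 to 4 in the same comparisons. HFD minus ND ran from -5.03 to -4.45 for Duox2, -5.33 to -4.59 for Duoxa2, -4.89 to -4.38 for Nos2 and -1.99 to -1.51 for Cyba. FSP minus HFD ran from 2.56 to 3.42, 2.35 to 3.34, 2.32 to 3.27 and 0.84 to 1.55 for the same genes, and FSP minus ND from -2.12 to -1.26, -2.53 to -1.55, -2.25 to -1.30 and -0.94 to -0.23.

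The groups share replicate numbers, but the labels do not say that a number marks a pair, and deviations of same-numbered libraries correlated at -0.094 to 0.043 in HFD against ND, 0.018 to 0.454 in FSP against HFD and -0.099 to 0.203 in FSP against ND. With a replicate block 2357, 337 and 77 genes passed in the 3 comparisons, and Gch1 in FSP against ND did not (0.92, limma adjusted p = 0.0784). No HFD library compared with ND, and no FSP library compared with HFD, correlated best with its own number. In FSP against ND, FSP 1 and FSP 3 did and FSP 2 did not. Depth limits Nox1, Duox1, Duoxa1, Il22 and the lowest HFD values of Duox2, Duoxa2 and Nos2.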
